A study of Homo sapiens with 12 samples.

Results

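The glutathione and NRF2 antioxidant genes are the enzymes that make, recycle and use glutathione, the thioredoxin and peroxiredoxin system, catalase and the pentose phosphate enzymes, with the transcription factor NRF2 (NFE2L2) and its inhibitor KEAP1. They were taken as 59 listed gene symbols, and the 42 that the array's annotation table names are described here, out of 14884 named genes in all. The other 17 were not analysed here: GCLC, GCLM, GGT1, GSTZ1, NQO1, NQO2, PRDX5, SOD1, SOD2, FTH1, FTL, ABCC2, ABCC3, AKR1B10, AKR1C1, AKR1C3 and EPHX1. Each of the 42 had 1 probe set, so no choice between probe sets was needed.

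NRF2 is a transcription factor that KEAP1 holds in the cytoplasm and hands to a cullin 3 ubiquitin ligase for degradation. Oxidants and electrophiles modify cysteines of KEAP1, after which NRF2 accumulates, pairs with a small MAF protein and binds antioxidant response elements near genes of glutathione, thioredoxin and NADPH metabolism. In the liver these genes serve the detoxification of drugs and peroxides, and several glutathione transferases are known to be zoned along the liver lobule. GSK-3, the kinase that marks β-catenin for degradation, can also mark NRF2.

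RNA came from HepG2, a human liver tumour cell line in which 1 allele of the β-catenin gene lacks exon 3, so that the line carries a truncated, stabilised form beside the full-length form. The cells were sampled 120 h after a control siRNA (siCtrl), an siRNA against the full-length form (sißCat-WT), an siRNA against the truncated form (sißCat-mut) or an siRNA against both forms (sißCat-both), with 3 arrays per group and 12 in all. The comparisons ask what each form contributes to gene expression. All groups are the same line, and whether the arrays of a group are separate cultures is not in the labels. The p-values therefore rest on array-to-array spread, possibly only technical. In bulk RNA, fewer cells of a type and less RNA per cell cannot be told apart.

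The values are log2 intensities from the authors' normalization, which makes the distributions of the arrays equal, and a level of one probe set is not compared here with that of another. Across all probe sets the array medians were 4.71 to 4.78, and a gene near that level is dim, so that its differences come out too small. Replicate arrays correlated at 0.990 to 0.994, and 0 pairs of arrays were identical. The targeted gene was not analysed here, so the groups rest on the labels. Of 14 hepatocyte markers 10 were measured, among them ALB, APOB and TF, with levels from 6.96 to 13.56 on single arrays. LUM and DCN of fibroblasts and PECAM1, VWF and KDR of endothelium stayed between 2.86 and 4.94. The leukocyte and bile duct markers were mixed: LYZ, CD68 and KRT19 were bright in every group (group means 9.04 to 12.72). CD14 of leukocytes and KRT7 of bile duct were dimmer, with group means of 5.473 to 6.173 and 5.019 to 5.265. The sum of the 10 hepatocyte marker levels was 115.17 to 115.77 on the siCtrl arrays, 112.73 to 114.41 after sißCat-WT, 121.23 to 121.70 after sißCat-mut and 120.52 to 120.64 after sißCat-both. It moved with the groups described next, and its part in the results was not tested.

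The antioxidant genes called after sißCat-WT, against the full-length form, were lower than after siCtrl. Of the 42 genes 13 fell and 0 rose against siCtrl at an adjusted p under 0.05 (limma, Benjamini-Hochberg over all genes), where 10.2% of all genes were called, 5.2% higher and 4.97% lower. GPX2, GSTM4, MGST2, HMOX1, MGST1 and GSR fell by the largest amounts, 1.08 to 0.48 on the log2 scale. The median difference over the 42 genes was -0.15, beside 0.005 over all genes. With genes under the 40th percentile of mean level left out, 18 of the 39 genes that stayed were called lower and 2 higher, beside 9.92% and 9.99% of all genes (19.9% called in either direction).

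After knockdown of the truncated form 9 genes rose and 8 fell, beside 12% and 13.6% of all genes, with a median difference of 0.02 beside 0.011 over all genes. The 9 that rose were all glutathione transferases, and GPX2, HMOX1, TKT, KEAP1, TXN and NFE2L2 fell the most. The called share was 40.5% of the 42 genes and 25.6% of all genes. Without dim genes the shares were 46.2% and 43.8%, so the number of calls was near the background there.

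With both forms knocked down 7 genes rose and 12 fell, beside 15.5% and 18.1% of all genes, and the median difference was -0.09 beside -0.006 over all genes. GPX2, TKT, TALDO1, GSR, HMOX1 and MGST1 fell the most, and GSTT2, catalase (CAT) and GPX8 rose the most. The called share was 45.2% against 33.6% of all genes, and without dim genes 56.4% against 53.8%, again near the background. These 3 comparisons share the siCtrl arrays.

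**Figure D1:**
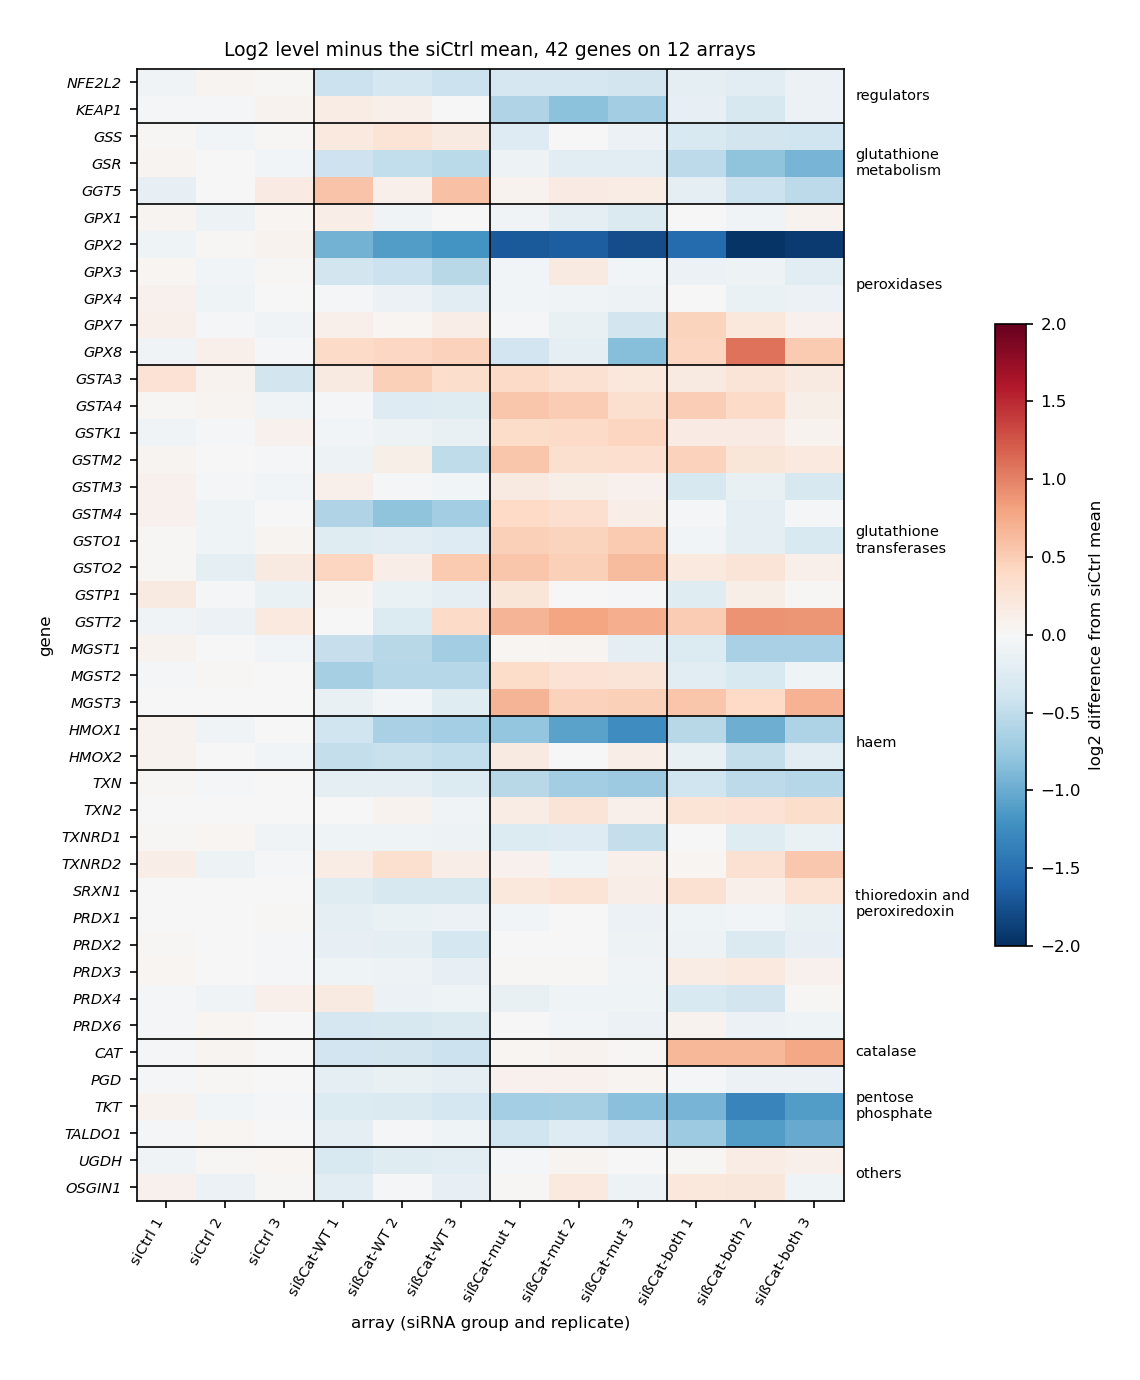
Log2 level minus the siCtrl mean for the 42 genes (rows, grouped by role) on the 12 arrays (columns, grouped by siRNA), with blue for lower and red for higher levels. The GPX2 row is blue on all 9 knockdown arrays. The block of glutathione transferases is mostly blue or pale after sißCat-WT and mostly pale red after sißCat-mut.

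The regulators NRF2 and KEAP1 differed between the groups at the RNA level. NFE2L2 read 8.85, 8.96 and 8.93 on the siCtrl arrays, 8.48, 8.57 and 8.49 after sißCat-WT, 8.58, 8.57 and 8.55 after sißCat-mut and 8.73, 8.68 and 8.80 after sißCat-both. All 9 knockdown arrays lay below the 3 siCtrl arrays, and the sißCat-both arrays lay above those of either single knockdown. NFE2L2 fell by 0.40 ± 0.07 after sißCat-WT and by 0.35 ± 0.07 after sißCat-mut (SE of the fit, 3 arrays in each group, adjusted p = 0.00155 and 0.0015). After sißCat-both its difference was -0.18 ± 0.07 (adjusted p = 0.0556), a call that was gained in 4 of 22 alternative settings (adjusted p 0.0265 to 0.174).

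KEAP1 read 8.71, 8.70 and 8.81 after siCtrl, 8.88, 8.84 and 8.73 after sißCat-WT, 8.13, 7.92 and 8.04 after sißCat-mut and 8.58, 8.42 and 8.62 after sißCat-both. The sißCat-mut arrays were the lowest of the 12 and did not overlap with any other group. KEAP1 fell by 0.71 ± 0.08 after sißCat-mut (adjusted p = 2.54e-05). Its differences after sißCat-WT and sißCat-both were 0.08 and -0.20, with adjusted p = 0.675 and 0.0843. With both forms knocked down KEAP1 was 0.51 higher than with the truncated form alone (adjusted p = 0.000527).

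The binding motif of NRF2 is shown here because it marks which measured genes carry it beside a listed start. Of the 42 genes 33 matched an entry in the RefSeq promoter table (GRCh38.p14, 250 bases before to 50 after a listed start). The windows of GSTO1, MGST1 and NFE2L2 lie wholly inside the gene, at a start other than its outermost one. Of these 33 windows 6 (18.2%) hold the antioxidant response element core TGACNNNGC on either strand, beside 13.6% of all 27305 windows and 14.7% of the windows of genes tested. The core of the TCF and LEF motif, CTTTGAT on either strand, was in 0 of the 33 windows. It was in 2.64% of all windows and 1.92% of the windows of genes tested, so 0 of 33 is near those shares. A match is a description of the letters in this window and not a binding site. The stretches that hold the matches follow, each 5′ to 3′ on the strand of the gene, with 20 bases on either side and the match in capitals.
GPX2, chr14:64942839-64942887, minus strand: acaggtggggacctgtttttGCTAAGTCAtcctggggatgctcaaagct
GSTA4, chr6:52995265-52995313, minus strand: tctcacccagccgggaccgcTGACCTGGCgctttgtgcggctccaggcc
GSTO1, chr10:104254646-104254759, plus strand: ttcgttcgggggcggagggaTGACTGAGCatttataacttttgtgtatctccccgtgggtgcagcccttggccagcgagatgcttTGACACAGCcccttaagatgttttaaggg
GSTP1, chr11:67583726-67583774, plus strand: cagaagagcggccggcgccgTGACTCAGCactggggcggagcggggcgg
PGD, chr1:10398843-10398891, plus strand: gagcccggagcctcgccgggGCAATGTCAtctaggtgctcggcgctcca
TXNRD1, chr12:104215660-104215799, plus strand: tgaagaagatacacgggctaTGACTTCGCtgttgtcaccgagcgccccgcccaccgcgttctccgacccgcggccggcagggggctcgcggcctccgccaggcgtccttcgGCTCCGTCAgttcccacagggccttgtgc
In GPX2, PGD and the second match of TXNRD1 the motif lies on the opposite strand, so its reverse complement is in capitals. After sißCat-mut these 6 genes did not share a direction: GPX2 and TXNRD1 fell, GSTA4 and GSTO1 rose, and GSTP1 and PGD had differences of 0.07 and 0.07 that did not pass the test (adjusted p = 0.756 and 0.485).

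The glutathione peroxidases reduce peroxides with glutathione, and GPX2, the form best known from the gut epithelium, moved the most of all 42 genes. GPX2 read 9.43, 9.54 and 9.59 after siCtrl, 8.58, 8.41 and 8.32 after sißCat-WT, 7.84, 7.88 and 7.75 after sißCat-mut and 7.977, 7.557 and 7.601 after sißCat-both. Every knockdown array lay below every siCtrl array, and the sißCat-WT arrays lay between siCtrl and the other knockdowns. It fell 2.12-fold after sißCat-WT, 3.24-fold after sißCat-mut and 3.50-fold after sißCat-both (log2 differences -1.08, -1.70 and -1.81, SE 0.11 each, adjusted p = 4.22e-05, 1.69e-07 and 4.76e-08). Its match to the antioxidant response element is the first stretch printed above.

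GPX8, a membrane-bound peroxidase of the endoplasmic reticulum, read 5.40, 5.58 and 5.44 after siCtrl, 5.86, 5.89 and 5.93 after sißCat-WT, 5.09, 5.29 and 4.62 after sißCat-mut and 5.902, 6.562 and 5.999 after sißCat-both. The sißCat-mut arrays, which spread widely and reach down to the median of all probe sets, were the lowest and the sißCat-both arrays mostly the highest. GPX8 rose by 0.68 ± 0.17 after sißCat-both (adjusted p = 0.00657) and was 1.15 ± 0.17 higher there than after sißCat-mut (adjusted p = 0.00028). GPX3, the secreted peroxidase, fell by 0.45 after sißCat-WT (adjusted p = 0.00307), with differences of 0.03 and -0.14 after the other siRNAs. The remaining members, GPX1, GPX4 (which protects membranes from lipid peroxides) and GPX7, were called in no comparison with siCtrl, and their differences lay between -0.18 and 0.25.

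Glutathione is recycled by its reductase GSR, made by its synthetase GSS and broken down outside the cell by glutamyl transferases such as GGT5. GSR read 11.31, 11.25 and 11.20 after siCtrl, 10.83, 10.76 and 10.71 after sißCat-WT, 11.15, 11.05 and 11.05 after sißCat-mut and 10.73, 10.46 and 10.33 after sißCat-both. The groups with the full-length form knocked down were the lowest, below all siCtrl and sißCat-mut arrays. GSR fell by 0.48 ± 0.09 after sißCat-WT and by 0.75 ± 0.09 after sißCat-both (adjusted p = 0.00424 and 2.64e-05), with a difference of -0.17 after sißCat-mut (adjusted p = 0.216).

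GSS read 9.33, 9.24 and 9.32 after siCtrl, 9.49, 9.56 and 9.48 after sißCat-WT, 9.04, 9.30 and 9.18 after sißCat-mut and 8.99, 8.92 and 8.89 after sißCat-both. It fell by 0.36 ± 0.08 after sißCat-both (adjusted p = 0.00224), with differences of 0.22 and -0.12 after the single knockdowns. GGT5 read 6.34, 6.51 and 6.67 after siCtrl, 7.072, 6.598 and 7.093 after sißCat-WT, 6.58, 6.67 and 6.66 after sißCat-mut and 6.31, 6.08 and 5.99 after sißCat-both. It fell by 0.38 ± 0.13 after sißCat-both (adjusted p = 0.0383) and was 0.80 lower there than after sißCat-WT (adjusted p = 0.000237). The first of these GGT5 calls ended without siCtrl replicate 2 or 3 or sißCat-both replicate 2 or 3 (adjusted p up to 0.15, and 0.0104 to 0.15 over all settings).

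Glutathione transferases join glutathione to electrophiles, as cytosolic enzymes of the alpha, mu, omega, pi and theta classes, as the mitochondrial and peroxisomal kappa enzyme GSTK1 and as the membrane enzymes MGST1, MGST2 and MGST3. Of the 13 measured, 3 fell and 0 rose after sißCat-WT, 9 rose and 0 fell after sißCat-mut, and 3 rose and 3 fell after sißCat-both. Over all genes 5.2% rose and 4.97% fell after sißCat-WT, 12% and 13.6% after sißCat-mut and 15.5% and 18.1% after sißCat-both. The median differences of the 13 from siCtrl were -0.15, 0.40 and 0.13, beside 0.005, 0.011 and -0.006 over all genes. The mu-class genes are close copies of one another and GSTT2 has a near-identical neighbour, so for GSTM2, GSTM3, GSTM4 and GSTT2 it is uncertain which copy a probe set reads.

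MGST2, a microsomal enzyme that also acts in leukotriene synthesis, read 8.47, 8.52 and 8.49 after siCtrl, 7.83, 7.93 and 7.93 after sißCat-WT, 8.87, 8.79 and 8.75 after sißCat-mut and 8.28, 8.19 and 8.41 after sißCat-both. The 4 groups did not overlap, with sißCat-WT lowest and sißCat-mut highest. MGST2 fell by 0.60 ± 0.07 after sißCat-WT and rose by 0.31 ± 0.07 after sißCat-mut (adjusted p = 0.000196 and 0.00692), and the knockdowns differed from each other by 0.91 ± 0.07 (adjusted p = 6.32e-07). It fell by 0.20 after sißCat-both at adjusted p = 0.0496, a call that 16 of 22 settings did not keep, among them each of the arrays left out in turn except sißCat-both replicate 3 (adjusted p 0.0212 to 0.172 over all settings).

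GSTM4, a mu-class enzyme, read 7.45, 7.29 and 7.37 after siCtrl, 6.76, 6.57 and 6.67 after sißCat-WT, 7.76, 7.70 and 7.50 after sißCat-mut and 7.32, 7.17 and 7.33 after sißCat-both. The sißCat-WT arrays were the lowest and overlapped with no other group. GSTM4 fell by 0.70 ± 0.09 after sißCat-WT (adjusted p = 0.000231) and rose by 0.29 ± 0.09 after sißCat-mut (adjusted p = 0.0292), and it was 0.99 ± 0.09 higher after sißCat-mut than after sißCat-WT (adjusted p = 1.56e-06). The rise after sißCat-mut ended with median centring and without siCtrl replicate 2 or 3 or sißCat-mut replicate 1 or 2 (adjusted p 0.00935 to 0.12 over all settings). MGST1, the most abundant microsomal transferase of liver, read 8.35, 8.28 and 8.23 after siCtrl and 7.82, 7.74 and 7.58 after sißCat-WT, and fell by 0.57 ± 0.11 (adjusted p = 0.00409). Its sißCat-both levels of 8.02, 7.64 and 7.64 were also below siCtrl, by 0.52 (adjusted p = 0.00197), and its sißCat-mut levels of 8.33, 8.33 and 8.10 were not called.

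The omega-class enzyme GSTO1 read 7.87, 7.75 and 7.90 after siCtrl, 7.59, 7.61 and 7.58 after sißCat-WT, 8.31, 8.28 and 8.36 after sißCat-mut and 7.78, 7.65 and 7.53 after sißCat-both. The sißCat-mut arrays stood above all others. GSTO1 rose by 0.48 ± 0.08 after sißCat-mut (adjusted p = 0.00039), and with both forms knocked down it was 0.66 ± 0.08 below that level (adjusted p = 4.13e-05). Its neighbour GSTO2 rose by 0.56 ± 0.11 after sißCat-mut, from a mean of 6.52 to 7.07 (adjusted p = 0.00221), with differences of 0.36 and 0.18 after the other siRNAs. The first of these passed in 6 of 22 settings (adjusted p 0.0198 to 0.246, and 0.0601 as fitted).

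GSTT2, a theta-class gene that the RefSeq table lists as a transcribed pseudogene, read 4.22, 4.18 and 4.50 after siCtrl, 4.30, 4.03 and 4.68 after sißCat-WT, 4.97, 5.09 and 5.02 after sißCat-mut and 4.81, 5.20 and 5.17 after sißCat-both. The groups with the truncated form knocked down lay above the others, all near the array floor. GSTT2 rose by 0.73 ± 0.15 after sißCat-mut and by 0.76 ± 0.15 after sißCat-both (adjusted p = 0.00241 and 0.0012). MGST3, also near the floor at 5.01 to 5.03 on the siCtrl arrays, rose to 5.48 to 5.70 after sißCat-mut and 5.42 to 5.72 after sißCat-both, by 0.54 ± 0.09 and 0.55 ± 0.09 (adjusted p = 0.000532 and 0.00028), with 4.78 to 4.96 after sißCat-WT.

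GSTA4, an alpha-class enzyme with high activity toward the lipid peroxidation product 4-hydroxynonenal, read 8.101, 8.140 and 8.003 after siCtrl, 8.64, 8.58 and 8.41 after sißCat-mut and 8.58, 8.46 and 8.20 after sißCat-both. It rose by 0.46 ± 0.10 and 0.33 ± 0.10 (adjusted p = 0.0041 and 0.0223). The call after sißCat-both ended without siCtrl replicate 3 or sißCat-both replicate 1 or 2 (adjusted p 0.004 to 0.0979 over all settings). GSTK1 rose by 0.40 after sißCat-mut (adjusted p = 0.000622). GSTM2 rose by 0.40 at adjusted p = 0.038, a call that ended when any 1 array of siCtrl or sißCat-mut was left out (adjusted p 0.00661 to 0.141 over all settings).

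GSTM3 fell by 0.26 ± 0.08 after sißCat-both (adjusted p = 0.0172), with differences of 0.01 and 0.13 after the single knockdowns, and without siCtrl replicate 1 or sißCat-both replicate 1 or 3 the call ended (adjusted p 0.00721 to 0.0796). GSTA3, at 3.18 to 4.02 on all arrays and so at the array floor, and GSTP1, the pi-class enzyme that hepatocytes hardly make, were called in no comparison with siCtrl. GSTA1 and GSTA2, alpha-class enzymes that are not among the 42, fell after sißCat-WT (log2 differences -2.26 and -2.57, the latter to 5.69, 4.42 and 4.69, where the array compresses differences), and they rose after sißCat-mut (2.51 and 2.59) and after sißCat-both (4.62 and 5.21). No measured transferase among the 13 moved by as much as 1 on the log2 scale against siCtrl.

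**Figure D2:**
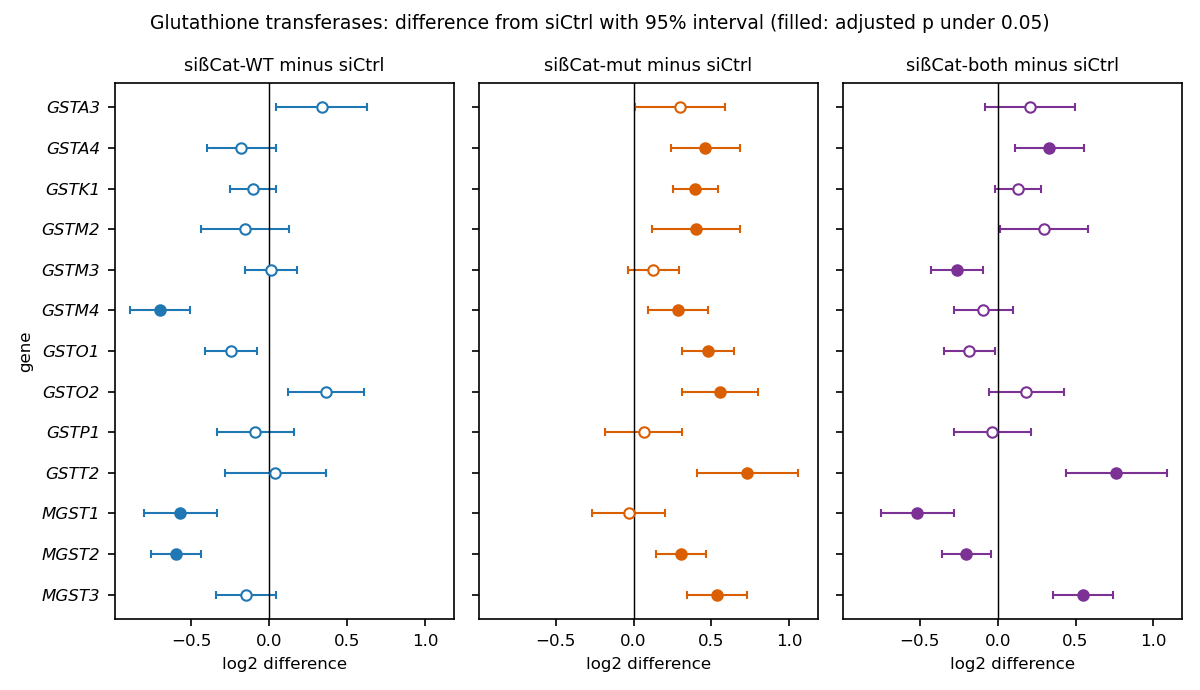
Log2 difference from siCtrl (x axis) of the 13 glutathione transferases (rows) after each siRNA, with the 95% interval of the limma fit and filled points where the adjusted p was under 0.05. The 9 filled points after sißCat-mut lie to the right of 0, and the 3 after sißCat-WT lie to the left. The siCtrl arrays are shared by the panels.

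Haem oxygenases cleave haem to biliverdin, iron and carbon monoxide, and HMOX1 is the form that oxidants and haem induce. HMOX1 read 9.25, 9.11 and 9.17 after siCtrl, 8.782, 8.528 and 8.497 after sißCat-WT, 8.40, 8.10 and 7.93 after sißCat-mut and 8.62, 8.20 and 8.56 after sißCat-both. All knockdown arrays were below all siCtrl arrays. HMOX1 fell by 0.57 ± 0.13, 1.03 ± 0.13 and 0.71 ± 0.13 (adjusted p = 0.0131, 5.89e-05 and 0.000707). The first of these calls ended without siCtrl replicate 1 or sißCat-WT replicate 2 or 3 (adjusted p 0.00333 to 0.0619 over all settings).

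HMOX2, the constitutive form, read 8.54, 8.46 and 8.41 after siCtrl, 7.998, 8.023 and 7.974 after sißCat-WT, 8.66, 8.48 and 8.60 after sißCat-mut and 8.319, 7.995 and 8.242 after sißCat-both. The sißCat-WT arrays were low and close together, and the sißCat-mut arrays overlapped with siCtrl. HMOX2 fell by 0.47 ± 0.09 after sißCat-WT (adjusted p = 0.00338) and by 0.28 ± 0.09 after sißCat-both (adjusted p = 0.0214). The second call ended without siCtrl replicate 1 or 2 or sißCat-both replicate 2, with renewed quantile normalization and in a fit of the pair of groups alone (adjusted p 0.00898 to 0.096).

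Thioredoxin (TXN) reduces protein disulphides, TXNRD1 returns it to the reduced state with NADPH, and sulfiredoxin (SRXN1) repairs over-oxidised peroxiredoxins. TXN read 10.16, 10.12 and 10.13 after siCtrl, 9.96, 9.95 and 9.87 after sißCat-WT, 9.58, 9.44 and 9.41 after sißCat-mut and 9.74, 9.61 and 9.57 after sißCat-both. The siCtrl arrays were the highest and those of sißCat-WT lay between them and the other knockdowns. TXN fell by 0.66 ± 0.07 after sißCat-mut and by 0.49 ± 0.07 after sißCat-both (adjusted p = 2.03e-05 and 0.000131), with a difference of -0.21 after sißCat-WT (adjusted p = 0.0957).

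TXNRD1 read 6.980, 6.997 and 6.893 after siCtrl, 6.87, 6.88 and 6.85 after sißCat-WT, 6.68, 6.70 and 6.48 after sißCat-mut and 6.95, 6.72 and 6.82 after sißCat-both. It fell by 0.34 ± 0.08 after sißCat-mut (adjusted p = 0.00742), the group whose 3 arrays lay below all others. SRXN1 read 8.43, 8.43 and 8.45 after siCtrl, 8.20, 8.11 and 8.12 after sißCat-WT, 8.64, 8.71 and 8.56 after sißCat-mut and 8.74, 8.54 and 8.71 after sißCat-both. The sißCat-WT arrays were below siCtrl and those of the other siRNAs above it.

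SRXN1 fell by 0.29 ± 0.07 after sißCat-WT and rose by 0.23 ± 0.07 after sißCat-both (adjusted p = 0.0222 and 0.0293), with a difference of 0.20 after sißCat-mut (adjusted p = 0.061). The fall ended without any 1 siCtrl array or sißCat-WT replicate 2 or 3 (adjusted p 0.00735 to 0.0837). The rise ended in 8 of 22 settings, among them each siCtrl array and sißCat-both replicates 1 and 3 left out (adjusted p 0.0043 to 0.11). SRXN1 was 0.50 and 0.52 higher after sißCat-mut and sißCat-both than after sißCat-WT (adjusted p = 0.000143 and 6.91e-05), and these differences were called in all 22 settings.

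Mitochondrial thioredoxin TXN2 rose by 0.30 ± 0.07 after sißCat-both, from 8.79 to 8.81 on the siCtrl arrays to 9.07 to 9.15 (adjusted p = 0.00365). Among the peroxiredoxins, which reduce peroxides, PRDX6 fell by 0.32 after sißCat-WT (adjusted p = 0.0107, or 0.0511 without siCtrl replicate 2). PRDX1, PRDX2, PRDX3, PRDX4 and the mitochondrial reductase TXNRD2 were called in no comparison with siCtrl, with differences between -0.23 and 0.29.

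Catalase, which splits hydrogen peroxide in peroxisomes, went in opposite directions after loss of the full-length form alone and of both forms. CAT read 9.77, 9.87 and 9.80 after siCtrl, 9.43, 9.44 and 9.38 after sißCat-WT, 9.84, 9.88 and 9.84 after sißCat-mut and 10.47, 10.47 and 10.58 after sißCat-both. The sißCat-both arrays were far above and the sißCat-WT arrays far below the siCtrl and sißCat-mut arrays, which overlapped. CAT fell by 0.39 ± 0.07 after sißCat-WT (adjusted p = 0.00161), rose by 0.70 ± 0.07 after sißCat-both (adjusted p = 2.37e-06) and had a difference of 0.04 after sißCat-mut (95% interval -0.10 to 0.19, adjusted p = 0.717).

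The pentose phosphate pathway supplies NADPH for glutathione and thioredoxin reduction through PGD, while TKT and TALDO1 rearrange its sugars. TKT, transketolase, read 10.36, 10.24 and 10.26 after siCtrl, 10.007, 9.995 and 9.933 after sißCat-WT, 9.60, 9.62 and 9.45 after sißCat-mut and 9.35, 8.96 and 9.17 after sißCat-both. The 4 groups did not overlap and stepped down in that order. TKT fell by 0.73 ± 0.09 after sißCat-mut and by 1.12 ± 0.09, or 2.18-fold, after sißCat-both (adjusted p = 6.14e-05 and 8.09e-07), with a difference of -0.30 after sißCat-WT (adjusted p = 0.0555) that passed in 9 of 22 alternative settings (0.0199 to 0.179).

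TALDO1, transaldolase, read 6.90, 6.98 and 6.93 after siCtrl, 6.74, 6.92 and 6.85 after sißCat-WT, 6.55, 6.68 and 6.56 after sißCat-mut and 6.21, 5.82 and 5.93 after sißCat-both. It fell by 0.34 ± 0.10 after sißCat-mut and by 0.95 ± 0.10 after sißCat-both (adjusted p = 0.0163 and 3.95e-06). The first call ended without siCtrl replicate 2 or sißCat-mut replicate 1 or 3 (adjusted p 0.00386 to 0.0596). PGD, the NADPH-producing step, had differences of -0.18, 0.07 and -0.09 from siCtrl that were not called.

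UGDH, which makes UDP-glucuronic acid for conjugation, fell by 0.25 ± 0.07 after sißCat-WT (adjusted p = 0.0318), a call that ended without siCtrl replicate 2 or 3 or any 1 sißCat-WT array (adjusted p 0.00202 to 0.118). OSGIN1, an oxidative stress-induced growth inhibitor, was called in no comparison with siCtrl, with differences of -0.13 to 0.12.

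**Figure D3:**
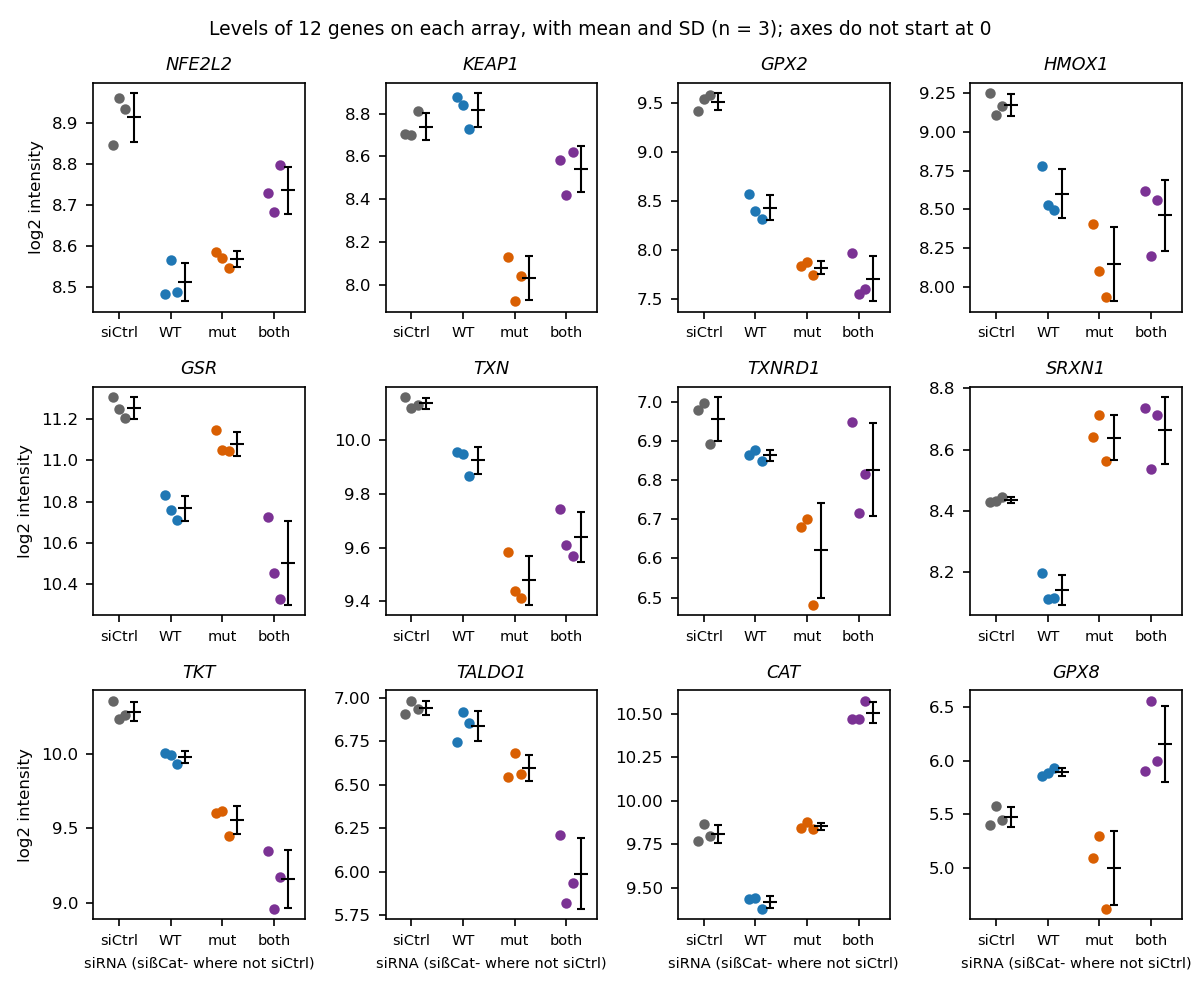
Log2 intensity (y axis, not from 0) of 12 genes on each of the 3 arrays per siRNA group, with the mean and SD of the group beside the points. KEAP1, TXNRD1 and HMOX1 are lowest after sißCat-mut, GSR, TKT and TALDO1 are lowest after sißCat-both, and CAT is lowest after sißCat-WT and highest after sißCat-both.

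Compared directly, knockdown of the truncated form left 17 of the 42 genes higher and 8 lower than knockdown of the full-length form (25 called, beside 31% of all genes, 14% higher and 17% lower), with a median difference of 0.16 beside 0.001. For the comparisons between knockdowns the shares of all genes called without dim genes are not given here. Such counts may lie nearer the background, as they did for sißCat-mut and sißCat-both against siCtrl. Among the 13 transferases 9 were higher and 0 lower. GSTM4, MGST2, GSTO1 and GSTT2 were the highest, at 0.99, 0.91, 0.72 and 0.69, and GPX8, KEAP1, GPX2 and HMOX1 the lowest, at -0.89, -0.79, -0.61 and -0.46 (adjusted p = 0.00106, 6.04e-06, 0.00055 and 0.0161). The HMOX1 call ended without sißCat-WT replicate 1 or sißCat-mut replicate 2 or 3 (adjusted p 0.00362 to 0.0803).

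With both forms knocked down, 15 genes were higher and 9 lower than after sißCat-WT (beside 36.2% of all genes called, 16.1% higher and 20.1% lower). Against sißCat-mut 4 were higher and 13 lower (beside 22.2%, 10.6% higher and 11.6% lower). Against sißCat-WT the highest were CAT, GSTT2 and MGST3 at 1.09, 0.72 and 0.70, and the lowest TALDO1, TKT and GGT5 at -0.85, -0.82 and -0.80. Relative to sißCat-mut the highest were GPX8, CAT and KEAP1 at 1.15, 0.65 and 0.51, and the lowest GSTO1, TALDO1 and GSR at -0.66, -0.61 and -0.58 (adjusted p = 4.13e-05, 0.00044 and 0.000546). In this last comparison 7 of the 13 transferases were lower and 0 higher.

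Whether loss of the truncated form had the same effect with the full-length form present and lost was tested as the difference between sißCat-both minus sißCat-WT and sißCat-mut minus siCtrl. It passed for 14 of the 42 genes, 8 higher and 6 lower, beside 16.4% of all genes (7.6% higher and 8.79% lower). The share of all genes without dim genes is not given for this test. Without siCtrl replicate 2, and likewise without siCtrl replicate 3, it passed for 9. For GPX2 the change was -1.70 with the full-length form present and -0.72 after its knockdown, a difference of 0.97 ± 0.15 (adjusted p = 0.000701). For HMOX1 the values were -1.03 and -0.14, a difference of 0.89 ± 0.19 (adjusted p = 0.00509). For CAT they were 0.04 and 1.09, a difference of 1.05 ± 0.09 (adjusted p = 9.09e-06).

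NFE2L2 itself changed by -0.35 with the full-length form present and by 0.23 after its knockdown, a difference of 0.57 ± 0.10 (adjusted p = 0.00101). GGT5, GSTO2 and TALDO1 departed the other way, by -0.93, -0.73 and -0.51 (adjusted p = 0.00366, 0.00641 and 0.0204). The TALDO1 call ended without sißCat-WT replicate 2 or sißCat-mut replicate 2 (adjusted p 0.0023 to 0.0544). Since sißCat-both is another siRNA and not the other siRNAs together, the depth of knockdown in the groups cannot be told apart from an interaction of the forms.

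**Figure D4:**
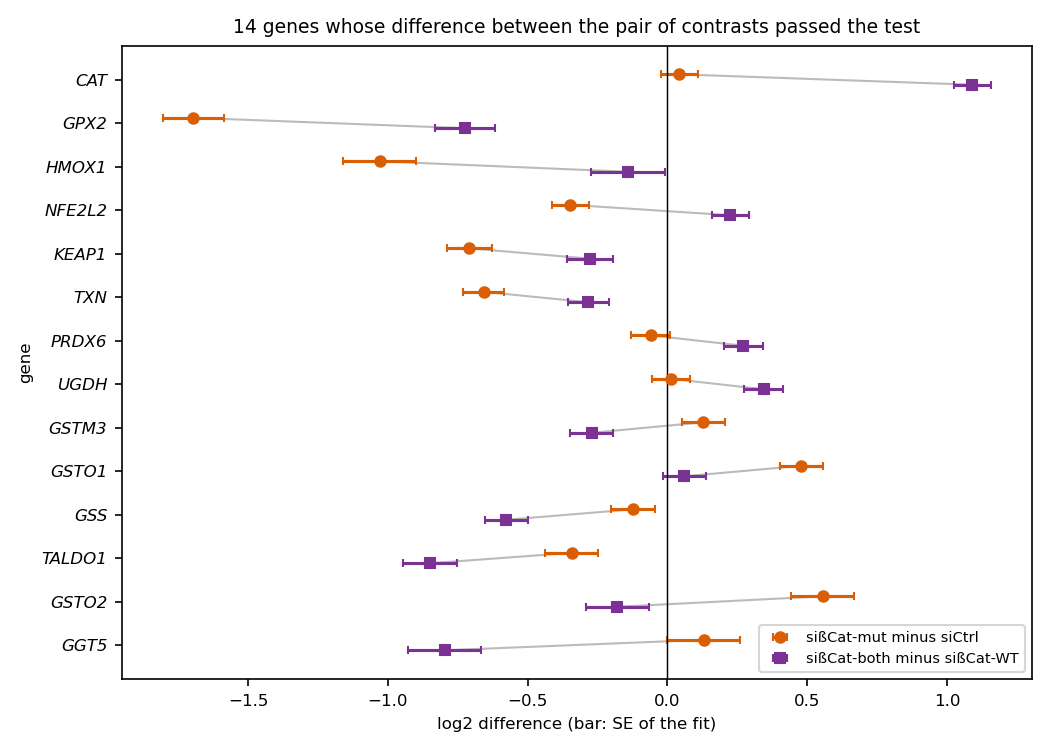
Log2 change with loss of the truncated form when the full-length form was present (sißCat-mut minus siCtrl, circles) and when it was knocked down (sißCat-both minus sißCat-WT, squares), with the SE of the fit, for the 14 genes whose difference between these passed the test. GPX2 moves from -1.70 to -0.72 and CAT from 0.04 to 1.09.

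Of 69 further genes of these pathways 39 were measured. After sißCat-WT 6 rose and 8 fell, after sißCat-mut 7 rose and 9 fell, and after sißCat-both 10 rose and 15 fell, with median differences of -0.01, -0.04 and -0.08 (all genes 0.005, 0.011 and -0.006). The called shares were 35.9%, 41% and 64.1%, beside 10.2%, 25.6% and 33.6% of all genes. Without dim genes 19.9%, 43.8% and 53.8% of all genes were called, and the counts of the 39 genes under that filter are not given here. Beside GSTA1 and GSTA2, NFE2L3, a relative of NRF2, moved the most: it fell by 1.69 after sißCat-mut and by 1.67 after sißCat-both (adjusted p = 2.62e-07 and 1.57e-07), with 0.30 after sißCat-WT. RPIA, the pentose phosphate isomerase, fell by 0.46, 1.28 and 1.08 in the 3 comparisons (adjusted p = 0.00412, 2.92e-07 and 7.08e-07).

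The thioredoxin inhibitor TXNIP read 8.42, 8.24 and 8.36 after siCtrl and 8.95, 9.10 and 9.60 after sißCat-WT, and rose by 0.87 ± 0.14 (adjusted p = 0.000916). In the other groups it fell, by 0.41 after sißCat-mut and 0.72 after sißCat-both (adjusted p = 0.0387 and 0.00078). The aminopeptidase ANPEP, which cleaves the dipeptide that glutathione breakdown leaves, fell by 0.70 after sißCat-WT (adjusted p = 0.000659). ANPEP also fell by 0.53 after sißCat-both (adjusted p = 0.0011), with a difference of -0.04 after sißCat-mut (adjusted p = 0.848). Glutaredoxin GLRX was 1.32 ± 0.08 higher after sißCat-mut than after sißCat-WT (adjusted p = 2.95e-08), with 8.10, 7.98 and 8.06 against 6.68, 6.66 and 6.83. After sißCat-both GLRX was 0.98 lower than after sißCat-mut (adjusted p = 2e-06). Its difference from siCtrl there was -0.10 (adjusted p = 0.364).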

How the data were processed

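Total RNA from 12 samples was measured on Affymetrix arrays, 1 array per sample. The deposited values are log2 intensities, and the submitters' processing notes name RMA and, for software, Affymetrix Expression Console 1.1. RMA subtracts background, makes the array distributions equal and summarises the probes of a set, which compresses dim levels. The number of arrays limits the precision. Of 53617 probe sets 16098 carried 1 gene symbol and 37519 none, and for the 779 genes with several probe sets the one with the highest mean was used, which left 14884 genes.

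One linear model with the 4 groups was fitted to all genes with limma 3.58.1 (R 4.3.3), with eBayes and Benjamini-Hochberg adjustment over all genes, and calls are at an adjusted p under 0.05. Errors after ± are standard errors of that fit. The test was tested on simulated data first, for sißCat-mut minus siCtrl. It recovered 64.2% of simulated log2 changes of 0.5, 97% of those of 1 and 100% of those of 2, with 7 false calls among 181. A gene that was not called may therefore still have changed. The simulation changed 67, 67 and 66 of 14884 genes by these sizes, while 25.6% of genes were called in the data. The recovery in the data may therefore differ. The members and gene lists were chosen with earlier results of these data known, and the motifs were chosen after the values were seen. Genes described in full were the regulators and the best known NRF2 targets, and the called genes with the highest and lowest differences in each comparison, with further examples per role. Replicate numbers were checked for pairing: in sißCat-both minus sißCat-WT same-numbered arrays deviated together (correlations 0.115, 0.155 and 0.134), in the other comparisons not all were over 0.1. Figures were drawn with matplotlib 3.10.9 (Python 3.11.15). Alternatives were another normalization, centring, filter, probe set rule, prior, set of arrays, array weights, the replicate block and leaving out arrays.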

Additional observations from a re-analysis of the deposited data

Results flagged for a closer look

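For 14 of the 42 genes, beside 16.4% of all genes, the log2 differences sißCat-both minus sißCat-WT and sißCat-mut minus siCtrl were unlike by the limma test. The second difference was lower than the first by the size given here for GPX2 (0.97), HMOX1 (0.89), CAT (1.05), NFE2L2 (0.57), KEAP1 (0.43), TXN (0.37), PRDX6 (0.33) and UGDH (0.33). The departure had the opposite sign for GGT5 (-0.93), GSTO2 (-0.73), TALDO1 (-0.51), GSS (-0.45), GSTO1 (-0.42) and GSTM3 (-0.40). Since sißCat-both is another siRNA, the depth of knockdown cannot be told apart here from an interaction of the forms. The share of all genes that passed without dim genes is not given for this test.

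Of these, the calls of CAT, GPX2, HMOX1, NFE2L2, GGT5, GSTO2 and GSS were kept in all 21 settings. The calls of KEAP1, TXN, PRDX6, UGDH, GSTM3, GSTO1 and TALDO1 were lost in some, with adjusted p up to 0.0565, 0.064, 0.0868, 0.0803, 0.0877, 0.0549 and 0.0544.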

How the results depend on the processing

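Over 22 alternative settings 148 of 153 counts of called genes stayed within 1.5 times the reported count, and 97 of 129 calls of single genes were kept in every setting. No called difference reversed, while some uncalled differences near 0 changed sign. The 13 genes called after sißCat-WT, where 10.2% of all genes were called, became 20 without dim genes, where 19.9% were. They became 22 with an intensity-trended prior and 21 with array weights, and the cause was not tested. The shares of all genes called with that prior, with those weights and with the replicate block are not given here. The 14 departures from additivity ranged from 9 to 14 when each array was left out, with 9 without siCtrl replicate 2 and without siCtrl replicate 3. With the replicate block the counts of called genes were 15 after sißCat-WT, 18 after sißCat-mut and 19 after sißCat-both, and 26, 24 and 17 between the knockdowns. As a hint from the data and not the design, 11 of 12 arrays were closest to the arrays of their own number. In sißCat-both minus sißCat-WT, where same-numbered arrays deviated together, the block changed no call. Elsewhere it ended the calls of MGST2 after sißCat-both and of GSS between sißCat-both and sißCat-mut, and it added calls such as TKT and GSTO2 after sißCat-WT and GPX7 after sißCat-both. The fit with only the groups compared could not be made for additivity, which uses all groups. Changes of genes near the array floor are limited by their signal.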
